A study of Rattus norvegicus with 6 samples.

Results

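The SOCS family holds the proteins Cish and Socs1 to Socs7, named as suppressors of cytokine signaling, which switch off receptors that work through Janus kinases (JAK) and STAT transcription factors. The members were found as the probe sets that the platform annotation pairs with exactly 1 gene symbol, that symbol being a family member. This gave 7 of the 8 genes, each with 1 probe set, among 14506 genes on 15310 probe sets. No probe set was paired with Socs7 alone in that annotation, and this gene was not analysed here. All samples were primary cardiomyocytes from the ventricles of 2-day-old Sprague-Dawley rats, enriched by letting fibroblasts attach to a dish first and then kept in serum-free medium. In 3 samples hCT1, human recombinant cardiotrophin 1, had been added at 0.5 nM for 24 h, and 3 control samples (Ctrl) received serum-free medium alone. The growth record of all 6 samples mentions a hypertrophic agonist, controls included, whereas the treatment record gives plain serum-free medium for controls, and the latter was followed. The RNA is described as isolated in triplicate with no statement that the cultures were separate, so the spread behind each p-value is that of these samples and could be technical.

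Cardiotrophin 1 is a cytokine of the interleukin 6 (IL-6) family, and it signals through a receptor made of gp130 (Il6st) and the leukemia inhibitory factor receptor (Lifr). The receptor activates JAKs, which phosphorylate STATs, chiefly STAT3, and STATs in turn switch on SOCS genes, which closes a negative feedback loop. Every SOCS protein has an SH2 domain that binds phosphorylated tyrosines and a SOCS box that recruits a ubiquitin ligase. Socs1 and Socs3 also carry a stretch that blocks JAK activity directly, and Socs3 binds gp130 itself. Cish and Socs2 act mainly on receptors that use STAT5, such as the growth hormone receptor, whereas Socs4, Socs5, Socs6 and Socs7 have been linked more to receptor tyrosine kinases and insulin signaling.

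Because SOCS genes are STAT targets, the bases around an annotated start site are shown for Cish and Socs1, which hold motif matches. They are also shown for Socs3, the gene that moved furthest, but its window lies wholly inside the gene. Each window runs from 250 bases before to 50 bases after an annotated start site, 5′ to 3′ on the gene's strand, from RefSeq on build GRCr8. Capitals mark the STAT element TTCNNNGAA, which reads the same on both strands, and, in Socs1, the core of the interferon response element (GAAA, any 2 bases, GAAA), searched on both strands. The windows lie at chr8:116850719-116851018 (plus strand, Cish), chr10:5389324-5389623 (plus strand, Socs1) and chr10:103694719-103695018 (minus strand, Socs3).
Cish: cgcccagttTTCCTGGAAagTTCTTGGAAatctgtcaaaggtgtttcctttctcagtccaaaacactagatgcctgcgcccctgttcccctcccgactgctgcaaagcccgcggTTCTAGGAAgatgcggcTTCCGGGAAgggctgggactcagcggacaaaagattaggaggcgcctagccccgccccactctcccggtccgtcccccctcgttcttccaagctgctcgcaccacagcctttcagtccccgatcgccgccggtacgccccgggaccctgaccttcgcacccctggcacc
Socs1: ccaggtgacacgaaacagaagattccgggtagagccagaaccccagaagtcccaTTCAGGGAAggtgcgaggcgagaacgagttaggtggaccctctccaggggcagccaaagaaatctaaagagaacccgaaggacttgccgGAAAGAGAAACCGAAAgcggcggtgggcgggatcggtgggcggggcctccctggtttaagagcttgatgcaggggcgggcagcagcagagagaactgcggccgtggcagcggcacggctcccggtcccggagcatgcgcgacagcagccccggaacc
Socs3: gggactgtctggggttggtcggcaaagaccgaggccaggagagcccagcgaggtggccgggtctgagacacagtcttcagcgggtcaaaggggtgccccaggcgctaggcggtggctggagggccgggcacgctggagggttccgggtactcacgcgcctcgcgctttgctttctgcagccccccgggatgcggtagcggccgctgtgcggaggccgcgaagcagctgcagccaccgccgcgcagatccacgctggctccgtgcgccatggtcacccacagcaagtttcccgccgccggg

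The Cish window held 4 STAT elements, starting at positions -241, -230, -136 and -119 from the start site. Of 33469 windows of 300 bases, 8.87% held at least 1 such element, 0.547% at least 2, and 2 windows held 4, that of Cish being among them. In the Socs1 window there was 1 STAT element, from -196, and 2 interferon element cores, from -107 and -101, which overlap by sharing bases. The core was found at least once in 3.92% of windows and at least 2 times in 0.266%. The windows of Socs3, Socs4 and Socs6 held neither motif. The start site used for Socs3 lay 1207 bases inside the outer end of its gene, and that of Socs6 lay 6128 bases inside. These windows thus lie within the genes and do not show the upstream flank of the whole gene. The lack of matches in the Socs3 and Socs6 windows therefore says nothing about those flanks. No window was at hand for Socs2 or Socs5. A match is a string of letters and was not tested for binding.

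**Figure D1:**
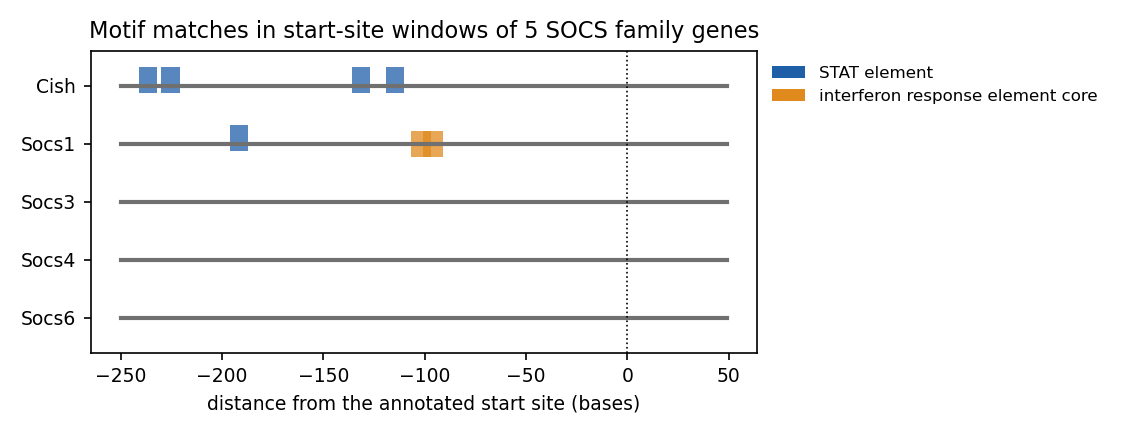
Positions of motif matches in start-site windows of 5 SOCS family genes, as distance in bases from the annotated start site (dotted line). Blue boxes are STAT elements and orange boxes interferon element cores: Cish has 4 blue boxes, Socs1 has 1 blue and 2 overlapping orange boxes, and the other 3 genes have none. The start sites used for Socs3 and Socs6 lie inside their genes, so the upstream flanks of these genes are not shown.

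RNA was hybridised to 1 Affymetrix whole-transcript rat array per sample, and values are log2 values made with RMA, so that a difference of 1 is a doubling. The 6 arrays were alike, with medians of 5.50 to 5.58 and Pearson's r over all probe sets of 0.9969 to 0.9978 within groups and 0.9942 to 0.996 between them, and no sample stood apart. Markers of cardiomyocytes were bright, 12 of 12 lying at or above percentile 83.5 of control signal. Of markers of other cells, fibroblast markers lay at percentiles 59.4 to 99.3, smooth muscle markers at 73.1 to 99.9, endothelial markers at 56.4 to 96.7 and leukocyte markers at 19.7 to 65.7. Without detection calls, the lowest leukocyte markers may be near background. In such bulk samples fewer cells of a type and less RNA per cell cannot be told apart.

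hCT1 raised 2 SOCS family genes, Socs3 and Cish, and lowered 1, Socs6. Socs3 rose 2.57-fold (95% interval 2.33 to 2.83), Cish rose 1.37-fold (1.21 to 1.55), and Socs6 fell to 0.79 of its control level (0.71 to 0.87). The other 4 genes did not pass the test, namely Socs1, Socs2, Socs4 and Socs5. The test was limma on the log2 values, with a Benjamini-Hochberg adjusted p under 0.05 over all 15310 probe sets, and the intervals are not adjusted. By this rule 4.98% of all probe sets were higher with hCT1 and 9.84% were lower, beside 2 of 7 and 1 of 7 in the family. The median log2 fold change was 0.15 over the 7 members and -0.003 over all probe sets tested. The groups did not overlap for 5 of 7 members (34.3% of all probe sets), 3 with the hCT1-treated samples above (13.9% of all probe sets) and 2 with them below (20.5%).

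**Figure D2:**
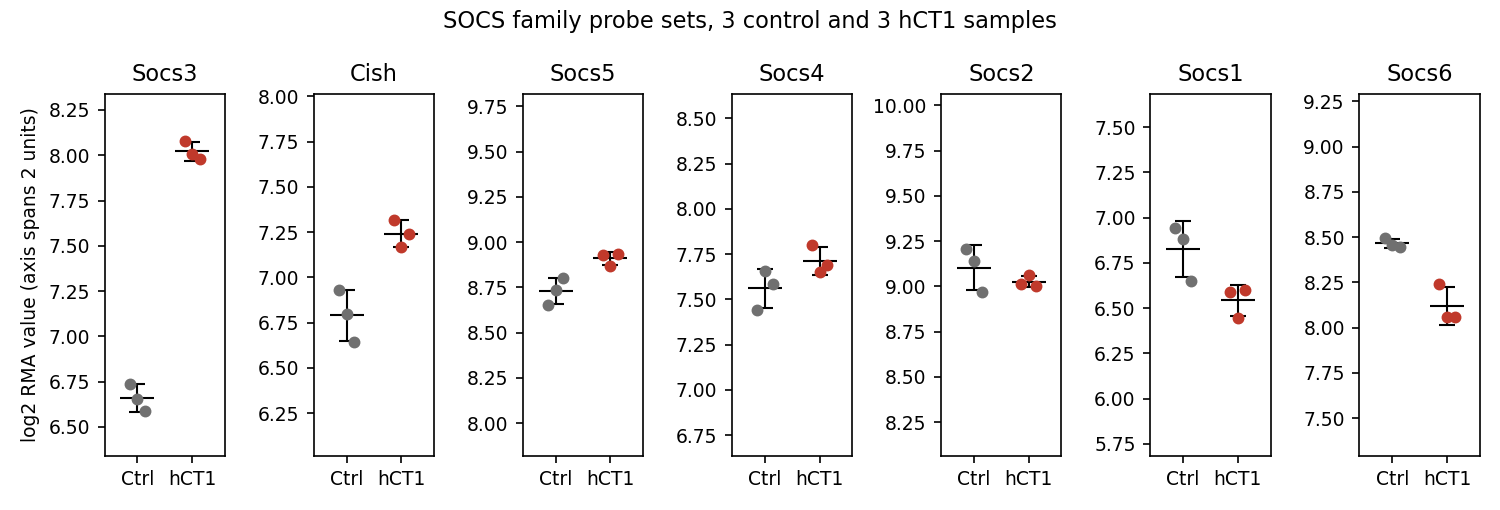
Log2 RMA values of 7 SOCS family probe sets in control (grey) and hCT1-treated (red) samples; points are samples, horizontal bars means and error bars SDs (n = 3 each), and each vertical axis spans the same range. The groups stand far apart for Socs3, apart by less for Cish, Socs5, Socs1 and Socs6, and overlap for Socs4 and Socs2.

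Socs3, the member that binds gp130 and inhibits the JAKs attached to it, changed the most (probe set 10749372). Its log2 values were 6.74, 6.66 and 6.59 in control samples and 8.08, 8.0 and 7.98 in hCT1-treated samples. All hCT1-treated values thus lay more than 1 log2 unit above all control values, far beyond the spread within either group. The means were 6.66 ± 0.08 and 8.02 ± 0.05 (SD, n = 3 each). The difference was 1.36 on the log2 scale with an SE of 0.06 (limma, adjusted p = 3.44e-06). By absolute change Socs3 ranked 33 of 15310 probe sets. In control samples it lay at percentile 61.5 of signal, so it was not among the dimmest probe sets.

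Cish, the founding member of the family and a feedback inhibitor of receptors that use STAT5, rose by less (probe set 10912908). Its log2 values were 6.93, 6.80 and 6.64 in control samples and 7.32, 7.17 and 7.24 in hCT1-treated samples. The lowest hCT1-treated value was above the highest control value, and control replicate 3 was the lowest of all. The means were 6.79 ± 0.14 and 7.24 ± 0.07 (SD, n = 3 each). The difference was 0.45 on the log2 scale with an SE of 0.08 (limma, adjusted p = 0.00634). Cish is the gene whose window carries 4 STAT elements above, and a link between these elements and the change was not tested. With an unmoderated one-way test in place of limma its adjusted p was 0.0769.

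Socs2, the closest relative of Cish and a brake on growth hormone signaling, gave no detectable difference (probe set 10901996). Its log2 values were 9.21, 9.14 and 8.97 in control samples and 9.01, 9.06 and 9.0 in hCT1-treated samples. The hCT1-treated values fell within the span of the controls. The log2 fold change was -0.08 (95% interval -0.24 to 0.08, limma adjusted p = 0.497), and the interval of the fold ran from 0.85 to 1.06. Cish and Socs2 thus had intervals of change that did not meet, 0.27 to 0.63 against -0.24 to 0.08.

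Socs1, the relative of Socs3 that also blocks JAKs directly and is the main brake on interferon receptors, had lower values with hCT1 that did not pass the test (probe set 10731512). Its log2 values were 6.95, 6.88 and 6.65 in control samples and 6.59, 6.45 and 6.60 in hCT1-treated samples. Every hCT1-treated value was below every control value, although control replicate 3 lay only just above. The log2 fold change was -0.28 (95% interval -0.47 to -0.09) and limma gave an adjusted p of 0.0539. Without control replicate 3 it was -0.37 (adjusted p = 0.0125 from limma), and over the alternatives tried the adjusted p ran from 0.0125 to 0.196. The estimates for Socs1 and Socs3, which share the JAK-blocking stretch, were thus of opposite sign.

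Socs6, which binds insulin and stem cell factor receptor signaling proteins and promotes their removal, fell (probe set 10805585). Its log2 values were 8.49, 8.45 and 8.45 in control samples and 8.24, 8.06 and 8.06 in hCT1-treated samples. The controls lay close together, and hCT1 replicate 1 was the closest to them of the treated samples. The means were 8.47 ± 0.03 and 8.12 ± 0.11 (SD, n = 3 each). The difference was -0.35 on the log2 scale with an SE of 0.07 (limma, adjusted p = 0.00893). With the unmoderated one-way test its adjusted p was 0.0618.

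Socs4 and Socs5, a closely related pair linked to signaling of the epidermal growth factor receptor, both had slightly higher means with hCT1, and neither passed. For Socs5 (probe set 10882773) the log2 values were 8.66, 8.74 and 8.80 in control samples and 8.93, 8.87 and 8.94 in hCT1-treated samples. These groups did not overlap, and the log2 fold change was 0.18 (95% interval 0.05 to 0.31, adjusted p = 0.0713 from limma). Without control replicate 3 it was 0.22 (adjusted p = 0.0441 from limma), with 0.0345 to 0.211 over the alternatives. For Socs4 (probe set 10779668) the log2 values were 7.44, 7.66 and 7.58 in control samples and 7.80, 7.65 and 7.69 in hCT1-treated samples. Here the groups overlapped, since hCT1 replicate 2 lay below control replicate 2, and the log2 fold change was 0.15 (95% interval -0.01 to 0.31, adjusted p = 0.19 from limma).

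**Figure D3:**
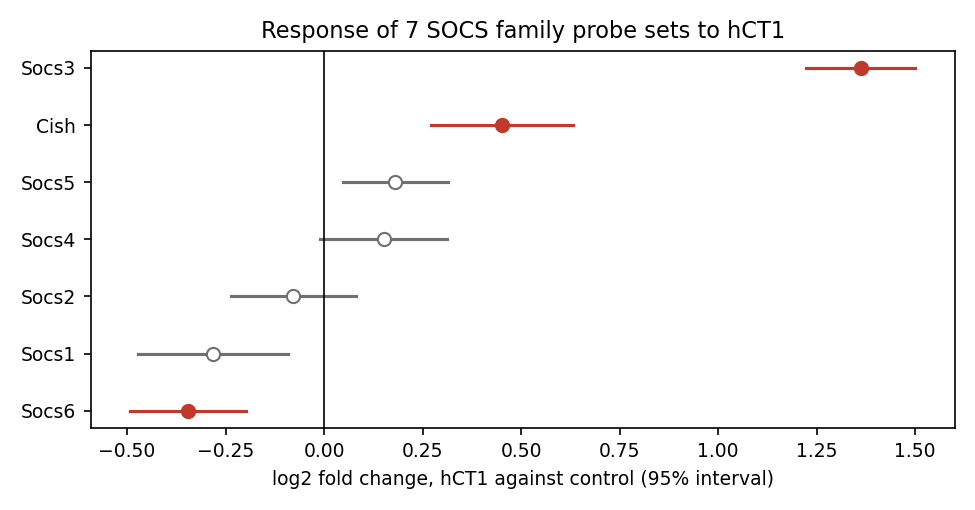
Log2 fold change of 7 SOCS family probe sets, hCT1 against control (3 samples each), with unadjusted 95% intervals from limma; red fill marks an adjusted p under 0.05 and open grey points are the rest. Socs3 at 1.36 stands apart from all others, which lie between -0.35 and 0.45.

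The response of Socs3 was set against that of each other member within samples, as the Socs3 value minus the other's, in 6 comparisons. The difference in log2 fold change was 0.91 (SE 0.05) against Cish, 1.18 (SE 0.09) against Socs5, 1.21 (SE 0.1) against Socs4, 1.44 (SE 0.05) against Socs2, 1.64 (SE 0.07) against Socs1 and 1.71 (SE 0.05) against Socs6. In each comparison the 3 hCT1-treated samples lay above the 3 controls. The exact permutation test (2-sided) gave p = 0.1 each time and 0.1 after Benjamini-Hochberg adjustment over the 6, which is the smallest p that 3 samples against 3 allow, so this design cannot reach 0.05. As Socs3 was known to lead the family, these differences are descriptions.

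Leaving out each sample in turn kept the direction of all 7 members, and Socs3, Cish and Socs6 passed the test each time. The log2 fold change of Socs3 then lay between 1.32 and 1.40, that of Cish between 0.38 and 0.52 and that of Socs6 between -0.41 and -0.31. Control replicate 3 moved several members at once. It had the lowest control value of Cish, Socs1, Socs2, Socs3 and Socs6, for the last by very little, and the highest of Socs5.

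**Figure D4:**
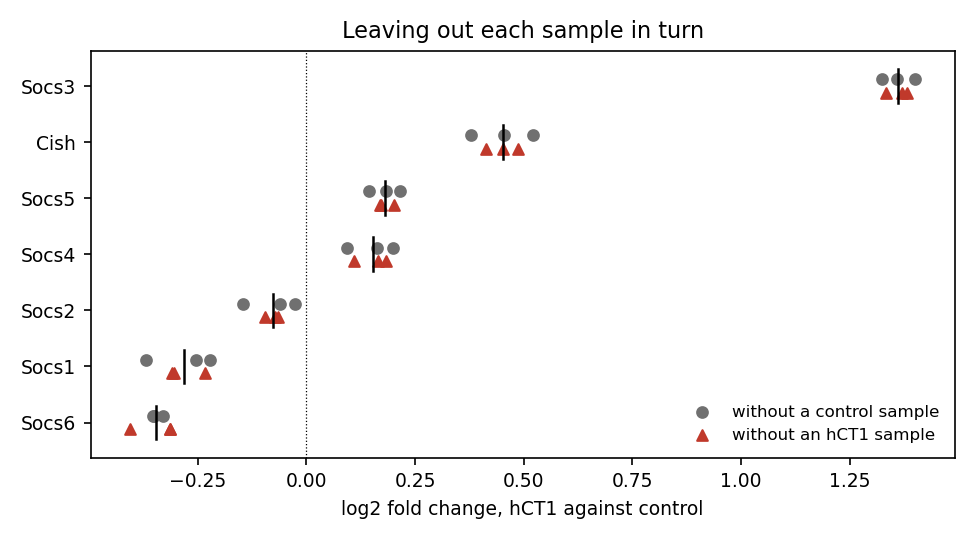
Log2 fold change of 7 SOCS family probe sets when 1 control sample (grey circles) or 1 hCT1-treated sample (red triangles) is left out; the black bar is the value over all 6 samples. Every symbol stays on its side of 0, and the spread is widest for Cish and Socs1.

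Profiles most like those of the 3 changed members were sought by Euclidean distance over the 6 samples, each profile centred on its own mean. Closest to Socs3 were Selp, an adhesion receptor of endothelium and platelets (distance 0.15, log2 fold change 1.34), Tgfbi, a matrix protein (0.15, 1.42), Ace, the angiotensin converting enzyme (0.15, 1.43), Bdkrb2, a bradykinin receptor (0.18, 1.39), and Scn3b, a sodium channel subunit (0.19, 1.38). Closest to Cish was Dusp5, a phosphatase that acts on ERK (distance 0.09, log2 fold change 0.51), before Gimap4, Marchf3, Srgn and Pikfyve at distances of 0.10 to 0.12. Closest to Socs6 was Fahd2a (distance 0.04, log2 fold change -0.37), before Psma7, Pitpnm1, Pik3ip1 and Acadvl at 0.06 to 0.07. With 2 groups these distances mostly reflect a like change with hCT1.

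The upstream parts of the pathway were counted over genes, each by its brightest probe set, where the background was 5.09% higher and 9.58% lower among 14506 genes. Of 7 receptor chains of the IL-6 family, 3 rose, 0 fell and 4 did not pass (median log2 fold change 0.12). Osmr, the oncostatin M receptor, had log2 values of 8.28, 8.32 and 8.30 in control samples and 9.13, 9.19 and 9.16 in hCT1-treated samples, which is 0.86 higher on the log2 scale with an SE of 0.05 (limma, adjusted p = 1.62e-05). The chains that bind hCT1 itself rose by less, Lifr by 0.26 (adjusted p = 0.0155) and Il6st by 0.20 (adjusted p = 0.0289). Lifr did not pass when control replicate 2 or either of hCT1 replicates 1 and 3 was left out, and Il6st kept its call only when control replicate 3 was left out.

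Among 3 measured JAK genes, 2 rose and 0 fell, beside 5.09% higher and 9.58% lower among all genes. Jak2 rose by 0.77 (SE 0.07, limma adjusted p = 0.00017) and Jak3, known mainly from lymphoid cells, by 0.29 (adjusted p = 0.0151), the latter not passing without hCT1 replicate 1 or hCT1 replicate 3. Among 6 STAT genes, Stat3 alone passed, at 0.28 on the log2 scale with an SE of 0.05 (limma, adjusted p = 0.00728), also without each sample in turn. The values of Stat5a and Stat5b, which act on Cish in other cells, were -0.13 and -0.14 (adjusted p = 0.342 and 0.199). Of 8 ligand genes of the IL-6 family, Il6 was higher by 0.48 (adjusted p = 0.0121) from percentile 35.8 of control signal, where values may be near background, and 7 did not pass, among them Ctf1, the rat gene of cardiotrophin 1 (-0.13, adjusted p = 0.318).

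Downstream, 11 of 23 known STAT3 target genes rose, 0 fell and 12 did not pass (median 0.17). Osmr, Il6st and Stat3 are among these 11 and were already counted above as receptor chains or STAT genes, so the lists are not independent. The background over all genes was 5.09% higher and 9.58% lower. The largest rises were in Serpina3n, an acute phase protease inhibitor (log2 fold change 1.96, from percentile 33.4 of control signal), Lbp, the lipopolysaccharide binding protein (0.96), Osmr (0.86) and Lcn2, the iron-sequestering lipocalin (0.84). With samples left out in turn 7 to 10 rose, the lowest count being without control replicate 2 or hCT1 replicate 1, and 1 fell when control replicate 3 was left out. Of 10 known STAT5 target genes other than Cish and Socs2, Bcl6, a transcriptional repressor, rose by 0.41 (adjusted p = 0.00821), Serpina1, a protease inhibitor, fell by 0.79 (log2 fold change -0.79, adjusted p = 0.000575), and 8 did not pass (median -0.07).

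**Figure D5:**
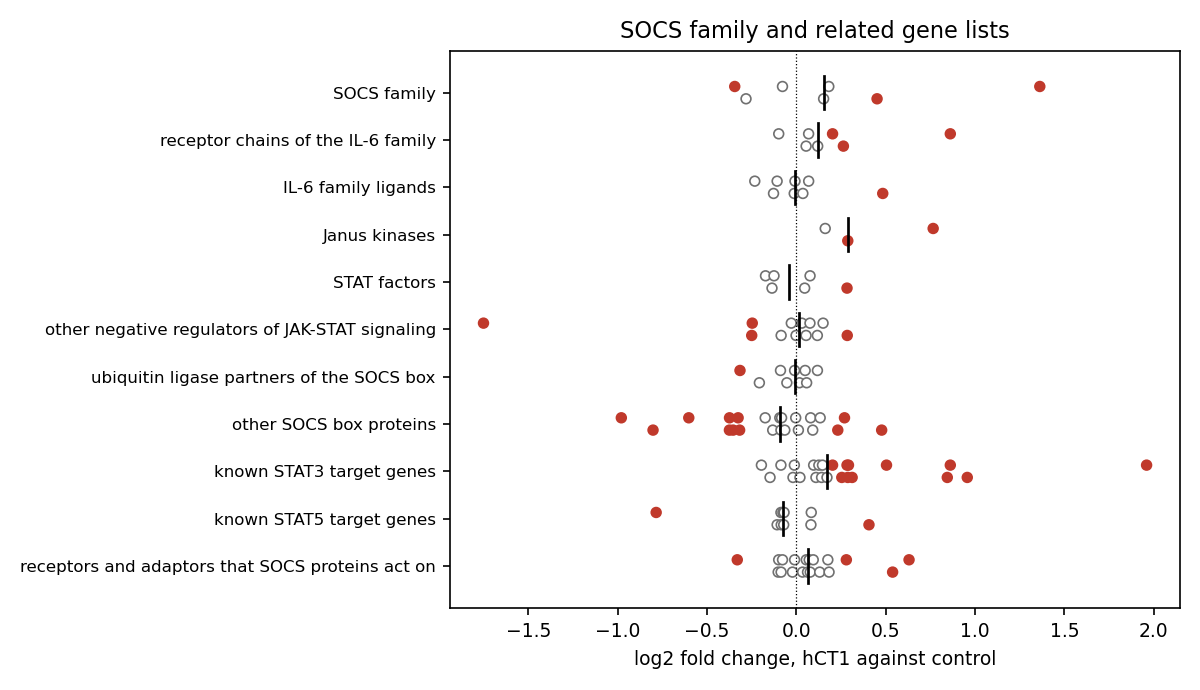
Log2 fold change, hCT1 against control, of the genes of the SOCS family and 10 related lists; each point is a gene, filled red where it passed an adjusted p of 0.05 in limma, and black bars are medians. Receptor chains, JAKs and STAT3 targets have red points to the right of 0 and none to the left, whereas other SOCS box proteins have 8 red points to the left and 3 to the right. Osmr, Il6st and Stat3 stand both among the STAT3 targets and in an upstream list.

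Other brakes on the same pathway did not move 1 way. Among 12 genes 1 was raised and 3 were lowered, and 8 gave no call (median 0.01), beside 5.09% raised and 9.58% lowered among all genes. Usp18, which restrains interferon receptor signaling, fell furthest, from log2 values of 6.56, 6.86 and 6.60 in control samples to 4.62, 4.98 and 5.16 in hCT1-treated samples (a difference of -1.75 with an SE of 0.13, limma adjusted p = 5.87e-05). The remaining calls were smaller, with Ptpn2, a phosphatase of JAKs, higher by 0.28, and Sh2b3, an adaptor that inhibits JAK2, and Pias4, which restrains STAT binding, at -0.25 each. When samples were left out in turn, Ptpn2 kept its call only without control replicate 3 or hCT1 replicate 3, Sh2b3 only without control replicate 3, and Pias4 only without control replicate 3 or hCT1 replicate 1. Of 9 ubiquitin ligase partners of the SOCS box, Elob, an adaptor that binds the box, was lower by a log2 fold change of -0.32 (adjusted p = 0.0102), with -0.28 and -0.27 on its other probe sets, and 8 did not pass, Cul5 among them (0.05).

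Receptors and adaptors on which SOCS proteins are known to act were also counted. Among 19 genes 3 were raised and 1 was lowered, and 15 gave no call (median 0.06), beside 5.09% raised and 9.58% lowered among all genes. Il4r, the interleukin 4 receptor, rose by 0.63 (adjusted p = 0.000244), Kit, the stem cell factor receptor, by 0.54 (adjusted p = 0.000732) and Ifngr2, a chain of the interferon gamma receptor, by 0.28 (adjusted p = 0.0159). Ghr, the growth hormone receptor that Socs2 and Cish restrain, fell by 0.33 on the log2 scale (adjusted p = 0.0121). Ifngr2 did not pass when control replicate 2 or either of hCT1 replicates 1 and 2 was left out.

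Markers of cell types moved with the treatment as follows, and their part in the SOCS values was not tested. The background for these counts was 9.58% lower and 5.09% higher among all genes. Of 12 cardiomyocyte markers 5 were lower and 0 higher (median -0.12), with log2 fold changes of -0.62 for Tnni3, -0.48 for Myl2, -0.45 for Myh6 and -0.31 for Tnnc1, which encode sarcomere proteins. Of 4 smooth muscle markers Myh11 (-0.39) and Tagln (-0.30) were lower, and these calls held without each sample in turn, as did those of the cardiomyocyte markers. Of 8 endothelial markers 1 was lower (Emcn, -0.47), and this call was lost when control replicate 2 or 3 or either of hCT1 replicates 1 and 2 was left out. Of 9 fibroblast and 10 leukocyte markers 0 passed in limma. An unadjusted p under 0.05 was reached by 3 and 3, beside 4594 of all 15310 probe sets. The largest values were 0.18 for Dcn, -0.17 for Col3a1, 0.28 for Cd53 and -0.27 for Tyrobp. Among leukocyte markers 1 was higher without hCT1 replicate 1, and 1 was lower without control replicate 3 and without hCT1 replicate 3. The log2 of the mean linear signal over the markers was 11.34 to 11.35 in control and 11.18 to 11.25 in hCT1-treated samples for cardiomyocytes, 10.16 to 10.23 and 10.08 to 10.13 for fibroblasts, 11.16 to 11.22 and 11.09 to 11.13 for smooth muscle, 8.29 to 8.40 and 8.25 to 8.34 for endothelium, and 5.69 to 5.85 and 5.56 to 5.73 for leukocytes. The ranges of the groups overlapped for endothelium and leukocytes, and those with hCT1 were lower for the other cell types. No defining marker is listed at 0, as RMA gives every probe set a positive value, and the leukocyte markers Cd3e, Itgam and Ptprc lay lowest, at percentiles 19.7, 23.0 and 23.2.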

How the data were processed

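The deposited table holds log2 values, computed by the authors through RMA in Affymetrix Expression Console (versions not given in the sources used here), which subtracts background, quantile-normalizes arrays and summarises probe sets, for 6 samples. RMA understates folds of dim probe sets, and detection calls and a genome build are not given in the sources used here. Of 29215 probe sets, 15310 were paired with exactly 1 symbol and tested, 323 had several and 13582 none, and 15279 matched the RefSeq table of GRCr8 by Entrez identifier. hCT1 and control were compared with limma 3.58.1 in R 4.3.3 (lmFit, eBayes without trend, 2-sided, Benjamini-Hochberg threshold 0.05). Genes of lists were represented by the probe set with the highest mean. Named are all members, the 4 largest changes that passed in each pathway or marker list (2 largest values where none passed), and the 5 profiles nearest to each changed member. Any other gene was named with its values known. The members and lists were chosen with earlier results of these data known. The number of arrays limits the precision. On simulated data the limma step found 66 of 67 log2 shifts of size 1, 50 of 67 of size 0.5 and 11 of 66 of size 0.25, with 4 false calls among 131. Only these shifts were put into 15310 probe sets, with independent normal noise. In the real data 14.8% of probe sets were called, so the share found there can differ. Alternatives were other tests, filters, normalizations and thresholds, leaving out each sample, averaging probe sets, and a replicate block.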

Additional observations from a re-analysis of the deposited data

How the results depend on the processing

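Socs3 passed under all 17 alternatives, with a log2 fold change of 1.32 to 1.42. Cish and Socs6 passed under 16 of 17, the exception being the one-way test without moderation. Under it 1 member was higher and 0 lower, with 376 probe sets higher and 675 lower in all. In limma 5 of 7 members had an unadjusted p under 0.05, beside 4594 of all 15310 probe sets. Lower members numbered 2 under trended robust moderation, array weights, a filter on dim probe sets, arrays centred on their median, and a threshold of 0.1, Socs1 being the gene added, and higher members numbered 3, with Socs5 added, under each of these but the centring. Leaving out 1 sample gave 2 to 3 higher and 1 to 2 lower members, the third higher (Socs5) and other lower member (Socs1) coming without control replicate 3, and 417 to 873 probe sets higher and 803 to 1810 lower, the highest counts being those without control replicate 3. At a threshold of 0.01, 296 probe sets were higher and 563 lower, and at 0.1, 1265 were higher and 2170 lower. The split was 917 to 1148 after another round of quantile normalization and 920 to 1324 after centring on the median. Deviations of same-numbered samples correlated at -0.29 to 0.05, and those of differently numbered samples at -0.18 to 0.21. No pairing was seen, but so few samples cannot exclude one. With the replicate block 490 probe sets were higher and 1010 lower, and the calls of all 7 members were unchanged. The cause of these changes was not tested.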

Other observations

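Other proteins with a SOCS box, which lack the SH2 domain of the family, were more often lower than higher with hCT1. Of 22 measured, 8 fell, 3 rose and 11 did not pass limma's test (median log2 fold change -0.09), beside backgrounds of 9.58% lower and 5.09% higher. Asb2, a muscle protein that marks filamins for degradation, fell from log2 values of 8.74, 8.62 and 8.46 in control samples to 7.66, 7.62 and 7.59 in hCT1-treated samples (a difference of -0.98 with an SE of 0.07, limma adjusted p = 6.23e-05). Asb4 was lower by a log2 fold change of -0.80 (adjusted p = 0.000676) and Asb11 by -0.60 (adjusted p = 0.00112). Spsb1 rose by 0.48 (adjusted p = 0.00535), from 6.78, 6.5 and 6.52 to 7.08, 7.01 and 7.14. When samples were left out in turn, 4 to 7 genes were lower, 4 without control replicate 1 and 5 without control replicate 2 or either of hCT1 replicates 1 and 2, and 1 to 2 were higher, 1 without control replicate 1, control replicate 2 or hCT1 replicate 1. Asb2, Asb4, Asb11 and Spsb1 passed each time.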
